A study of Arabidopsis thaliana with 12 samples.

Results

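JAZ1 to JAZ10 are 10 genes of Arabidopsis thaliana that encode JASMONATE ZIM-DOMAIN (JAZ) proteins, the repressors that hold jasmonate responses in check. They are given as a list of gene names, and all 10 were found among the 33602 genes of the count table. RNA was sequenced from whole seedlings of the wild type, Col-0, and of gp1-2, a line with the T-DNA insertion SAIL_209_D07 in the Col-0 background. Plants of both genotypes were kept at 22 °C in a cycle of 16 h light and 8 h dark, on medium with 1% sucrose, were moved at an age of 5 days to a divided plate, and were harvested at 7 days. In the treated groups the plate also held the bacterium GB03 for 2 days, so that plants met the volatiles it gave off, and the untreated groups had no bacterium. Each of the 4 groups had 3 libraries, labelled biological replicates: untreated wild type, wild type with volatiles, untreated gp1-2 and gp1-2 with volatiles. The mutant is a single insertion line, and each library is a whole seedling sample in which every tissue is mixed.

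Jasmonates are fatty-acid-derived hormones of wounding, defence and growth restraint. In a resting cell JAZ proteins bind transcription factors such as MYC2 and recruit the corepressor TOPLESS, through the adaptor NINJA or through a repression motif of their own. When jasmonoyl-isoleucine accumulates it joins JAZ proteins to the F-box receptor COI1, the JAZ proteins are degraded and the MYC factors are released. MYC factors also switch on most JAZ genes, which restores repression, so JAZ transcripts are widely used as readouts of the pathway. Transcript levels do not show the levels of JAZ proteins or of the hormone, neither of which was measured here.

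Total counts ran from 11158051 to 25214934 per library, and all 6 gp1-2 libraries were deeper (17908408 or more) than all 6 wild-type libraries (15839067 or fewer). Of the 33602 genes, 20736 passed the filter on low counts and were tested, JAZ1 to JAZ10 among them. JAZ8 passed through the gp1-2 group with volatiles alone and therefore had to be high there, so its values are given as a description with no test and the counts of JAZ genes below are over the other 9. JAZ7 passed in 3 groups, and the other 8 passed in all 4. The title of the series names a stearoyl-ACP desaturase, and the labels do not name the gene that the insertion hits. None of the 7 stearoyl-ACP desaturase genes was at 0 in gp1-2, and SSI2 was higher there (586 to 746 CPM, which are read counts scaled to library size, without bacteria, against 119 to 129 CPM in wild type). The RNA therefore gives no check of the genotype by loss of a transcript, and directions below refer to the libraries labelled gp1-2. Root markers (5 genes) summed to 86.4 to 118 CPM over all libraries, with none at 0. Between genotypes 0 of them were called without bacteria, and COBL9 was lower in gp1-2 with volatiles (log2 fold change -0.374, edgeR adjusted p = 0.03). Volatiles raised EXPA7 in wild type (0.501, edgeR adjusted p = 0.014) and in gp1-2 (0.378, edgeR adjusted p = 0.043). They lowered SCR in gp1-2 (-0.296, edgeR adjusted p = 0.042). The COBL9 call was kept in 9 of 15 alternatives and that of SCR in 6. Shoot markers (4 genes), dominated by RBCS1A, summed to 10600 to 14400 CPM in wild type and to 5620 to 7830 CPM in gp1-2, and the part of this difference in the JAZ results was not tested. In untreated gp1-2, LHCB1.1 (log2 fold change -1.659, edgeR adjusted p = 4.6e-08) and RBCS1A (-0.615, edgeR adjusted p = 0.00072) were lower. GL1 (-0.053, edgeR adjusted p = 0.91) and FAMA (-0.129, edgeR adjusted p = 0.46) did not pass there. With volatiles FAMA was also lower in gp1-2 (-0.427, edgeR adjusted p = 0.013). In such mixed tissue, fewer cells of a type and less RNA per cell cannot be told apart.

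The factor MYC2 binds the G-box, CACGTG, and its presence upstream of the JAZ genes is shown here because these genes are known targets of MYC2. In the 500 bases upstream of the annotated start (RefSeq annotation of TAIR10.1), CACGTG, which reads the same on both strands, stood in 6 of the 10 JAZ genes (JAZ2, JAZ3, JAZ6, JAZ7, JAZ8 and JAZ9). Of 27443 nuclear protein-coding genes, 9.35% held it in a window of the same length. The variant AACGTG, searched on both strands, stood in JAZ3, JAZ5 and JAZ6 and in 13.5% of all such windows. TTGACC, the W-box core of WRKY factors, stood on either strand upstream of JAZ3, JAZ8 and JAZ10 and in 20.7% of all windows. Neither G-box letters nor the variant were in the window of JAZ1, JAZ4 or JAZ10. The site of JAZ6 lay within the annotated non-coding gene AT1G09307. A match is a string of letters and not a measured binding site. The G-boxes of 5 genes are printed 5′ to 3′ on the strand of the gene, from the RefSeq TAIR10.1 genome, with the motif in capitals:
JAZ2 (chr1:28150480-28150539, minus strand, motif starting 66 bases upstream): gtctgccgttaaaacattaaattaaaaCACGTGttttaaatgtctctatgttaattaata
JAZ3 (chr3:6119598-6119657, plus strand, 82 bases upstream, the nearer of its pair of sites): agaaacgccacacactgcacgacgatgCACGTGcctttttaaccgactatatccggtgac
JAZ7 (chr2:14572969-14573028, plus strand, 34 bases upstream): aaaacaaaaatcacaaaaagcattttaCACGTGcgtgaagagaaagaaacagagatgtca
JAZ8 (chr1:10596315-10596351, plus strand, 10 bases upstream): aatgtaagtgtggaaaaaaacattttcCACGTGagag
JAZ9 (chr1:26654136-26654195, plus strand, 366 bases upstream): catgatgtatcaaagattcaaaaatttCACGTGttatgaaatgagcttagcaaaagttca

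The 10 genes are spread over 4 chromosomes, 7 of them on chromosome 1. No 50-base stretch of any of their exons occurs elsewhere in the genome, so exonic reads of at least that length belong to 1 gene each. JAZ10 is overlapped on the opposite strand by the non-coding gene AT5G02045, and since the sources used here do not give the strand setting of the counting, its reads and those of AT5G02045 cannot be told apart. Per kilobase of exon, the level in untreated wild type ran from 30.3 ± 8.48 CPM per kb (SD, n = 3) for JAZ1 down to 0.274 ± 0.128 CPM per kb for JAZ8. JAZ6, JAZ2 and JAZ9 followed JAZ1, at 18.6 ± 1.67, 15.8 ± 0.546 and 13.9 ± 2.15 CPM per kb. Then came JAZ3 (5.45 ± 0.895), JAZ4 (3.77 ± 0.239), JAZ7 (3.41 ± 1.25), JAZ10 (1.39 ± 0.375) and JAZ5 (0.966 ± 0.422). In this order of levels JAZ2 and JAZ9, JAZ3 and JAZ7, JAZ4 and JAZ7, and JAZ10 and JAZ5 had overlapping ranges of mean ± SD. In gp1-2 with volatiles JAZ1 still led at 82.7 ± 1.49 CPM per kb, while JAZ5 stood at 12.7 ± 1.88 and JAZ7 at 10.7 ± 0.598 CPM per kb, both above JAZ3 at 7.56 ± 0.571.

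Summed over the 10 genes, JAZ transcripts made up 168 to 174 CPM in untreated wild type, 90.2 to 105 CPM in wild type with volatiles, 314 to 364 CPM in untreated gp1-2 and 334 to 362 CPM in gp1-2 with volatiles. The wild-type sum was lower with volatiles in every library, the gp1-2 sums overlapped, and every gp1-2 library lay above every wild-type one. Abundant members weigh most in such sums, and the genes are therefore described one by one, by sequence clade.

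**Figure D1:**
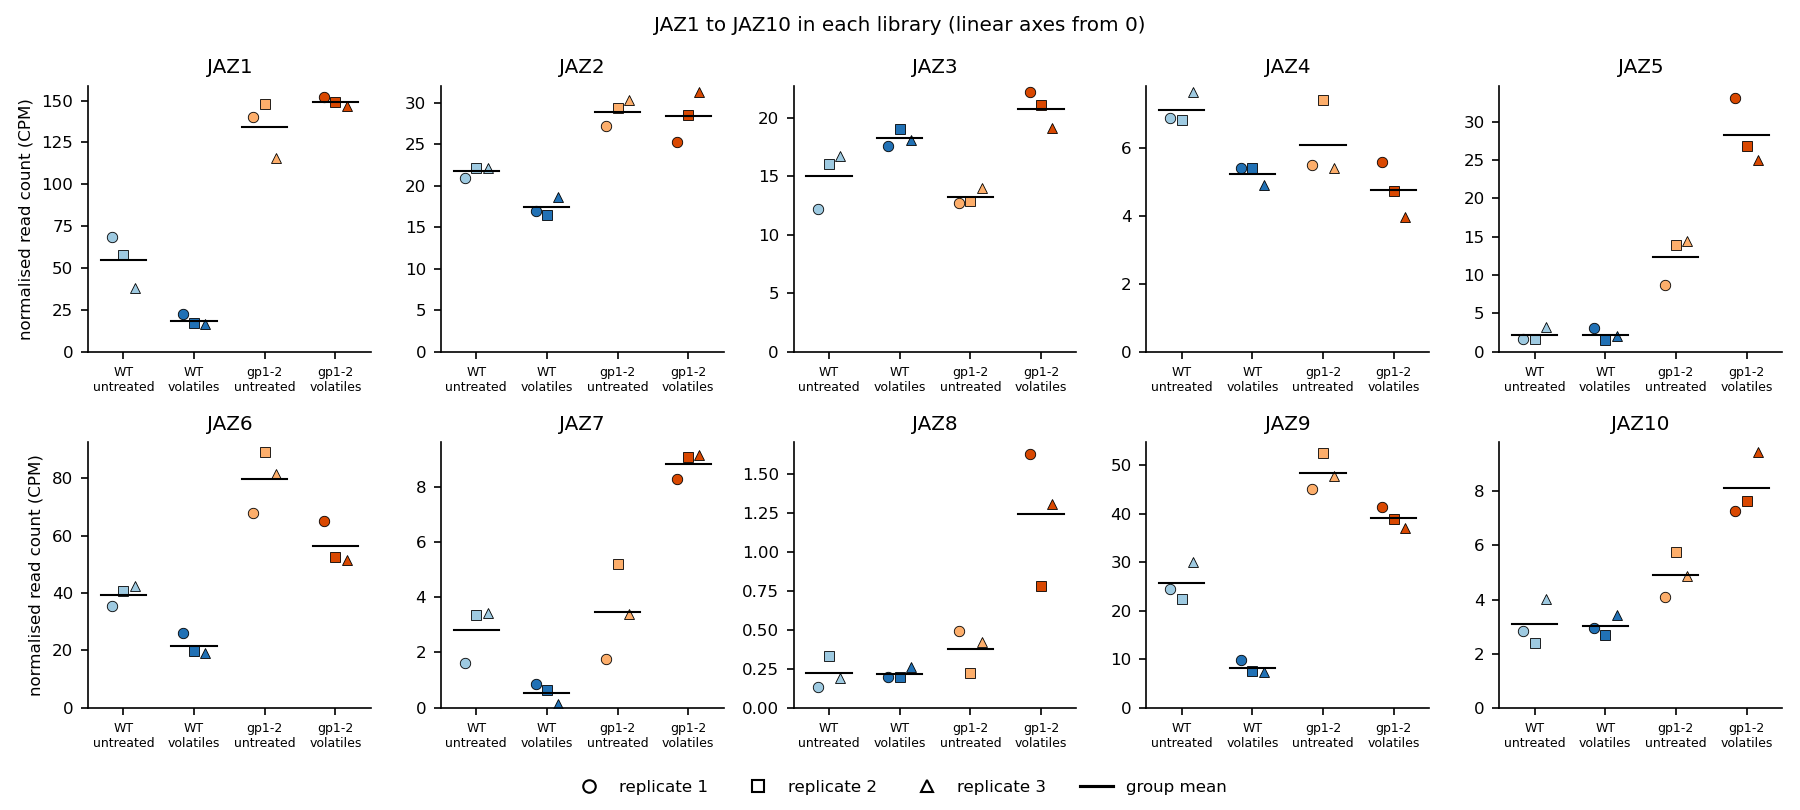
Normalised read count (CPM, linear axes from 0, a different range in each panel) of JAZ1 to JAZ10 in each of the 12 libraries; symbols mark the replicate number and lines the mean of 3 libraries. JAZ1 lies between 16.4 and 22.2 CPM in wild type with volatiles and between 147 and 152 CPM in gp1-2 with volatiles, while JAZ3 and JAZ4 differ little between genotypes.

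JAZ1, JAZ2, JAZ5 and JAZ6 form one clade. JAZ1 (AT1G19180), among the founding members of the family and a COI1 partner in the jasmonate co-receptor, is at chr1:6621777-6623668 on the plus strand. Its normalised read counts were 68.2, 57.7 and 38 CPM in untreated wild type and 22.2, 17.0 and 16.4 CPM with volatiles, without overlap. In gp1-2 they were 140, 148 and 116 CPM untreated and 152, 149 and 147 CPM with volatiles, and all 6 lay above all wild-type libraries. With volatiles JAZ1 fell in wild type, by 1.57 ± 0.18 (SE) on the log2 scale (edgeR quasi-likelihood test, adjusted p = 1.4e-05). In gp1-2 the log2 difference was 0.15 ± 0.16 (edgeR adjusted p = 0.52). JAZ1 was higher in gp1-2 by a log2 fold change of 1.29 ± 0.17 without bacteria (edgeR adjusted p = 1.7e-05) and of 3.01 ± 0.18 with volatiles (edgeR adjusted p = 2.1e-09), 8.06 times the wild-type level.

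JAZ2 (AT1G74950), known for a role in the reopening of stomata by the bacterial toxin coronatine, is at chr1:28148574-28150446 on the minus strand. It measured 20.9, 22.2 and 22.2 CPM in wild type without bacteria, 17.0, 16.5 and 18.6 CPM in wild type with volatiles, 27.2, 29.4 and 30.3 CPM in untreated gp1-2, and 25.3, 28.6 and 31.3 CPM in gp1-2 with volatiles. The range is narrow, and both gp1-2 groups lay above both wild-type groups. Its fall with volatiles in wild type was small (log2 fold change -0.32 ± 0.10, edgeR adjusted p = 0.024). That call was lost without untreated wild-type replicate 2 (adjusted p = 0.068) or 3 (0.052) and without volatile-treated wild-type replicate 1 (0.066) or 2 (0.083). JAZ2 was higher in gp1-2 by 0.41 ± 0.10 on the log2 scale without bacteria (edgeR adjusted p = 0.0031) and by 0.71 ± 0.10 with volatiles (edgeR adjusted p = 1.8e-05).

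JAZ5 and JAZ6 carry a repression motif of their own. JAZ5 (AT1G17380), at chr1:5955155-5957511 on the minus strand, was low in all 6 wild-type libraries, at 1.62, 1.61 and 3.25 CPM untreated and 3.14, 1.45 and 2.07 CPM with volatiles. In gp1-2 it measured 8.65, 13.9 and 14.5 CPM untreated and 33.1, 26.8 and 25.0 CPM with volatiles. The wild-type groups overlapped, and the gp1-2 groups overlapped neither each other nor wild type. JAZ5 was higher in untreated gp1-2 by 2.58 ± 0.29 on the log2 scale (edgeR adjusted p = 3.6e-06), the largest untreated genotype difference among JAZ1 to JAZ10. It rose further with volatiles in gp1-2, by 1.19 ± 0.21 on the log2 scale (edgeR adjusted p = 5e-04), and was 12.7-fold higher than in wild type with volatiles (log2 fold change 3.67 ± 0.26, edgeR adjusted p = 1.7e-08).

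JAZ6 (AT1G72450), whose clock-controlled level is known to shape daily differences in resistance to a fungus, is at chr1:27273968-27276562 on the minus strand. It measured 35.5, 40.8 and 42.3 CPM in wild type without bacteria, 26.1, 19.7 and 19.2 CPM in wild type with volatiles, 68.1, 89.1 and 81.6 CPM in untreated gp1-2, and 65.2, 52.7 and 51.5 CPM in gp1-2 with volatiles. It was lower with volatiles in both genotypes and without overlap in either. The fall was 0.86 ± 0.14 on the log2 scale in wild type (log2 fold change -0.86, edgeR adjusted p = 0.00033) and 0.50 ± 0.13 on that scale in gp1-2 (-0.50, edgeR adjusted p = 0.0093). The gp1-2 call was lost without untreated gp1-2 replicate 2 (log2 fold change -0.41, edgeR adjusted p = 0.053). JAZ6 was higher in gp1-2 in both conditions, by log2 fold changes of 1.01 ± 0.14 (edgeR adjusted p = 2.4e-05) and 1.38 ± 0.14 (edgeR adjusted p = 7.7e-07).

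JAZ3, JAZ4 and JAZ9 form a further clade. JAZ3 (AT3G17860), first known through the dominant jasmonate-insensitive mutant jai3-1, is at chr3:6119707-6123044 on the plus strand. It measured 12.2, 16.0 and 16.7 CPM in wild type without bacteria, 17.6, 19.0 and 18.1 CPM in wild type with volatiles, 12.7, 12.9 and 14 CPM in untreated gp1-2, and 22.2, 21.1 and 19.1 CPM in gp1-2 with volatiles. Volatile-treated libraries lay above untreated ones in each genotype. JAZ3 rose with volatiles in gp1-2 by 0.65 ± 0.11 on the log2 scale (edgeR adjusted p = 0.00043). In wild type the log2 difference was 0.29 ± 0.12 (edgeR adjusted p = 0.074), which passed the threshold without untreated wild-type replicate 3 (0.37, edgeR adjusted p = 0.039). The genotype differences were -0.18 ± 0.12 without bacteria (edgeR adjusted p = 0.27) and 0.19 ± 0.11 with volatiles (edgeR adjusted p = 0.20). The first of these passed without untreated wild-type replicate 1 (log2 fold change -0.31, edgeR adjusted p = 0.042).

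JAZ4 (AT1G48500), known as a repressor in cold tolerance and leaf senescence, is at chr1:17931390-17934662 on the plus strand. It measured 6.89, 6.84 and 7.65 CPM in wild type without bacteria, 5.41, 5.4 and 4.91 CPM in wild type with volatiles, 5.51, 7.41 and 5.4 CPM in untreated gp1-2, and 5.59, 4.73 and 3.98 CPM in gp1-2 with volatiles. The wild-type groups did not overlap, and the other comparisons did. No difference of JAZ4 was called: with volatiles the log2 fold changes were -0.44 ± 0.17 in wild type (edgeR adjusted p = 0.061) and -0.36 ± 0.16 in gp1-2 (edgeR adjusted p = 0.097), and between genotypes they were -0.22 ± 0.16 and -0.14 ± 0.17.

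JAZ9 (AT1G70700), which is known to bind the DELLA repressors of gibberellin signalling, is at chr1:26654529-26657350 on the plus strand. It measured 24.5, 22.4 and 30.1 CPM in wild type without bacteria, 9.88, 7.57 and 7.43 CPM in wild type with volatiles, 45.2, 52.5 and 47.7 CPM in untreated gp1-2, and 41.5, 38.9 and 37.1 CPM in gp1-2 with volatiles. No pair of groups overlapped. With volatiles JAZ9 fell in wild type, by 1.62 ± 0.13 on the log2 scale (log2 fold change -1.62, edgeR adjusted p = 6.7e-07). In gp1-2 the fall was 0.31 ± 0.11 (log2 fold change -0.31, edgeR adjusted p = 0.049), and this call was kept in 3 of 15 alternatives. It was lost when any of the 6 gp1-2 libraries was left out (edgeR adjusted p from 0.06 to 0.18) and with RLE scaling, upper-quartile scaling, DESeq2 or thinned counts (adjusted p from 0.057 to 0.091). JAZ9 was higher in gp1-2 by a log2 fold change of 0.92 ± 0.12 without bacteria (edgeR adjusted p = 1.6e-05) and of 2.24 ± 0.13 with volatiles (edgeR adjusted p = 1.4e-09).

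JAZ7 and JAZ8 encode short JAZ proteins with a repression motif of their own, and JAZ8 is known to lack the usual degron and to resist jasmonate-driven degradation. JAZ7 (AT2G34600), at chr2:14573030-14573952 on the plus strand, measured 1.62, 3.35 and 3.44 CPM in wild type without bacteria, 0.868, 0.658 and 0.129 CPM in wild type with volatiles, 1.76, 5.2 and 3.39 CPM in untreated gp1-2, and 8.26, 9.08 and 9.15 CPM in gp1-2 with volatiles. Volatile-treated libraries were the lowest in wild type and the highest in gp1-2, and the untreated groups overlapped. JAZ7 fell with volatiles in wild type (log2 fold change -2.32 ± 0.52, edgeR adjusted p = 0.0033) and rose in gp1-2 (1.36 ± 0.31, edgeR adjusted p = 0.0038). The wild-type libraries with volatiles held 13, 10 and 2 counts. The log2 fold change was -1.85 without the last of these and -2.80 without the first, with edgeR adjusted p of 0.014 and 0.0051. Between genotypes JAZ7 differed by 0.32 ± 0.37 without bacteria (edgeR adjusted p = 0.54) and was 15.9-fold higher in gp1-2 with volatiles (log2 fold change 3.99 ± 0.43, edgeR adjusted p = 1.8e-06).

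JAZ8 (AT1G30135), at chr1:10596352-10597341 on the plus strand, had 2, 5 and 2 counts in untreated wild type, 3, 3 and 4 in wild type with volatiles, 9, 4 and 8 in untreated gp1-2, and 33, 17 and 34 in gp1-2 with volatiles. Only the last group was clear of the others, at 1.63, 0.78 and 1.31 CPM against at most 0.496 CPM elsewhere. That group let JAZ8 through the filter, so its difference from the others was fixed by the filter and is not tested. At these counts differences among the other 3 groups were not detectable.

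JAZ10 (AT5G13220), a strongly jasmonate-induced member with splice forms known to resist degradation, is at chr5:4218786-4221077 on the plus strand with 7 annotated transcript models, which gene counts do not separate. It measured 2.84, 2.41 and 4.02 CPM in wild type without bacteria, 2.94, 2.70 and 3.43 CPM in wild type with volatiles, 4.08, 5.75 and 4.87 CPM in untreated gp1-2, and 7.28, 7.66 and 9.46 CPM in gp1-2 with volatiles. The wild-type groups overlapped, and gp1-2 lay above wild type throughout. JAZ10 rose with volatiles in gp1-2 (by 0.74 ± 0.18 on the log2 scale, edgeR adjusted p = 0.0052) and was higher in gp1-2 with volatiles (1.43 ± 0.19, edgeR adjusted p = 1.7e-05). Without bacteria the genotype difference was 0.69 ± 0.21 (edgeR adjusted p = 0.016). This last call was lost without untreated wild-type replicate 1 (0.65, edgeR adjusted p = 0.055) or 2 (0.54, adjusted p = 0.084) and without untreated gp1-2 replicate 2 (0.56, adjusted p = 0.072).

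Set together, volatiles in wild type lowered JAZ1, JAZ2, JAZ6, JAZ7 and JAZ9, 5 of the 9 genes other than JAZ8, and raised 0 of them. Of all 20736 genes tested, 30.1% were called in this comparison, 15.3% lower and 14.8% higher. Libraries of the compared groups did not overlap for 6 JAZ genes that were lower and 1 that was higher, against 20.9% and 20.7% of all genes tested. The median log2 fold change of the 9 genes was -0.439 against 0 over all genes tested. DESeq2 and limma-voom also called 0 of them higher, and 1, JAZ3, was on the higher side at an unadjusted edgeR p under 0.05. In gp1-2, volatiles raised 4 of the 9 (JAZ3, JAZ5, JAZ7 and JAZ10) and lowered 2 (JAZ6 and JAZ9; DESeq2 called JAZ6 alone), against 14.7% of all genes higher and 17.6% lower (32.3% in all). The groups did not overlap for 4 JAZ genes that were higher and 2 that were lower, against 22.6% and 24.7% of all genes. The median was 0.15 against -0.003.

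Between genotypes the JAZ differences that were called were one-sided. Without bacteria, 6 of the 9 were higher in gp1-2 (JAZ1, JAZ2, JAZ5, JAZ6, JAZ9 and JAZ10) and 0 were lower, against 20% of all genes higher and 17.2% lower (37.2% in all). With volatiles, 7 of the 9 were higher in gp1-2, all but JAZ3 and JAZ4, against 22.6% of all genes higher and 23.3% lower (45.9% in all). In both conditions 0 were lower by edgeR, DESeq2 or limma-voom, and also 0 at an unadjusted edgeR p under 0.05. Below 0 but uncalled were JAZ3 (-0.18) and JAZ4 (-0.22) without bacteria and JAZ4 (-0.14) with volatiles. JAZ3 was called lower without bacteria when untreated wild-type replicate 1 was left out (-0.31, edgeR adjusted p = 0.042). The groups did not overlap for 6 JAZ genes without bacteria (24.8% of all genes higher and 22.7% lower) and for 8 with volatiles (26% higher and 28.2% lower), all of them higher in gp1-2. The median log2 fold changes were 0.69 and 1.43, against -0.016 and -0.045 over all genes tested. These comparisons share groups with those of the volatiles, so their values are not independent.

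**Figure D2:**
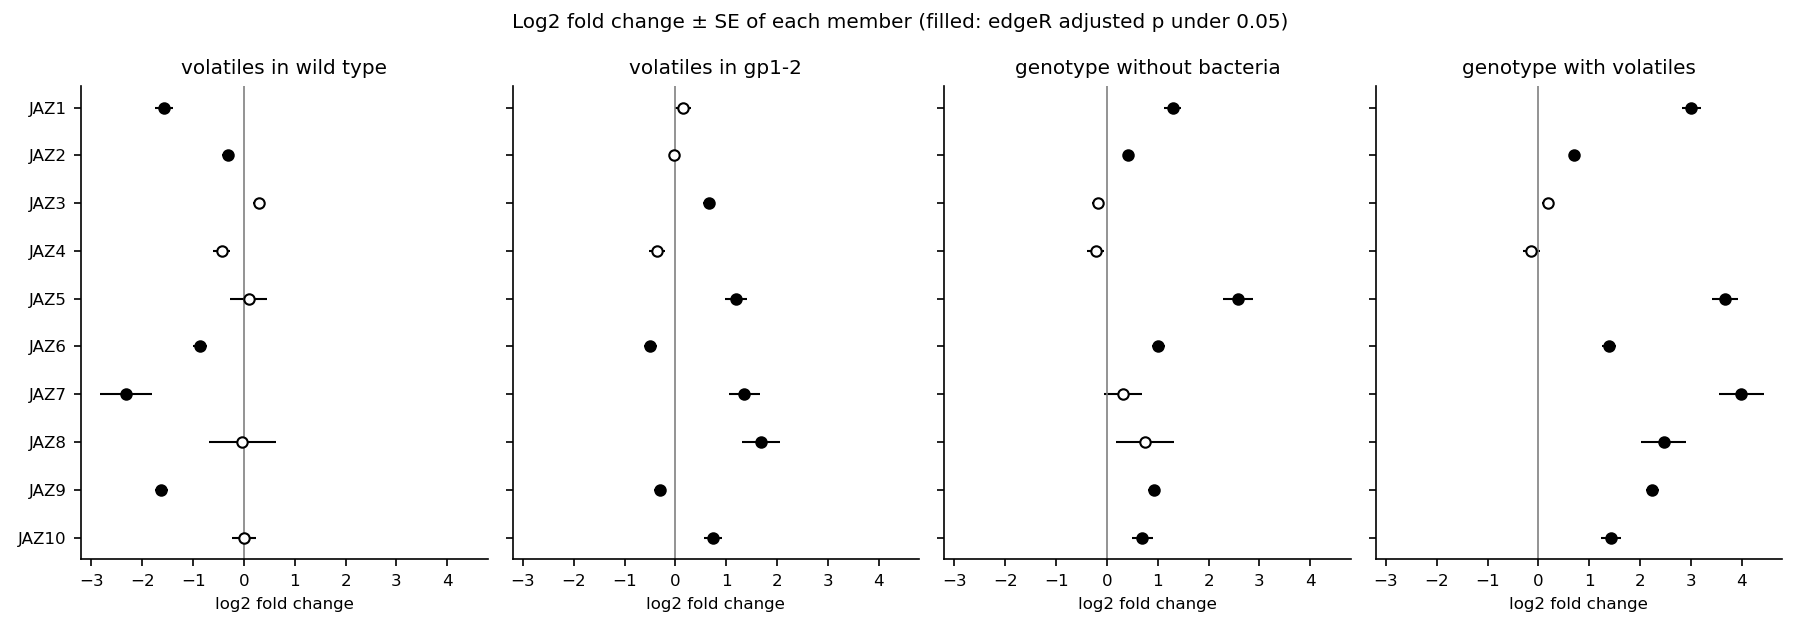
Log2 fold change (x axis) with its standard error for JAZ1 to JAZ10 (y axis) in each of 4 comparisons; filled points passed an edgeR adjusted p of 0.05. In the comparison of genotypes with volatiles, 7 filled points other than JAZ8 lie to the right of 0, from 0.71 for JAZ2 to 3.99 for JAZ7; the filter fixed the place of JAZ8, and its fill is to be read as no test.

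Whether the response to volatiles differed between genotypes was tested as an interaction, the log2 fold change in gp1-2 minus that in wild type. It was called for 3 of the 9 genes, all higher, with 0 lower by edgeR, DESeq2, limma-voom or an unadjusted edgeR p under 0.05, against 1.48% of all genes higher and 1.32% lower (2.8% in all). These were JAZ1 (1.72 ± 0.24, edgeR adjusted p = 0.0013), JAZ7 (3.68 ± 0.60, edgeR adjusted p = 0.004) and JAZ9 (1.31 ± 0.18, edgeR adjusted p = 0.00088). JAZ1 and JAZ9 fell in wild type and moved less in gp1-2, whereas JAZ7 moved in opposite directions. JAZ5 passed the test for volatiles in gp1-2 and not in wild type, but its interaction term of 1.09 ± 0.42 did not pass (edgeR adjusted p = 0.21). The same held for JAZ10 (0.74 ± 0.29, edgeR adjusted p = 0.22) and JAZ3 (0.36, edgeR adjusted p = 0.31). The median interaction term of the 9 was 0.74, against -0.019 over all genes tested.

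**Figure D3:**
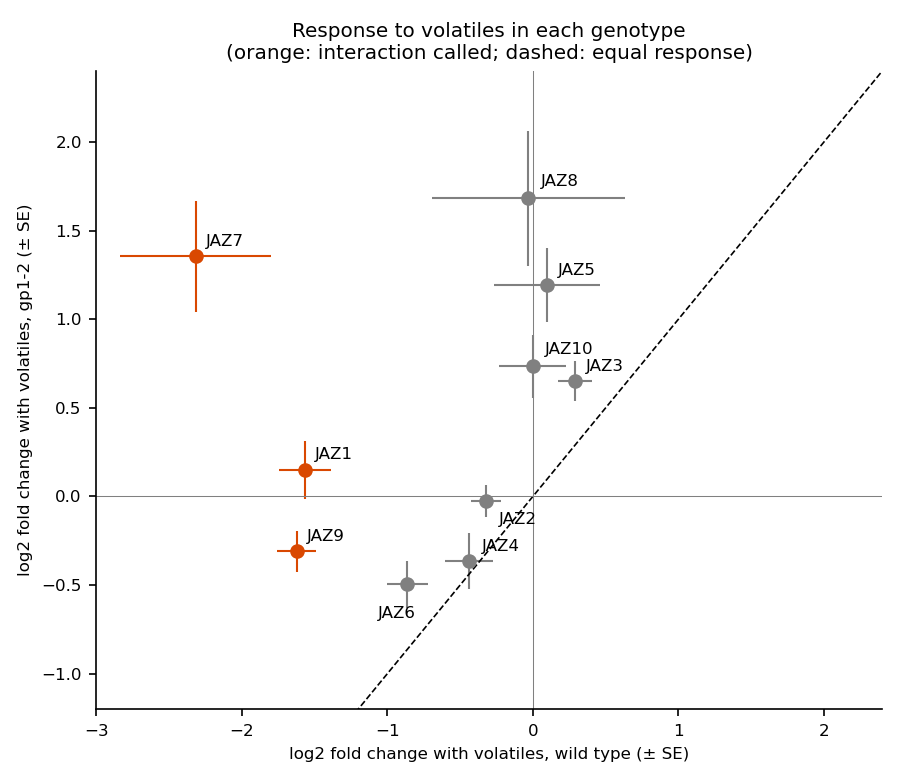
Log2 fold change with volatiles in gp1-2 (y axis) against that in wild type (x axis) for JAZ1 to JAZ10, with standard errors; the dashed line marks equal responses and orange points are those whose interaction passed. All 10 points lie above the line, that of JAZ8 by way of the filter; JAZ4 is nearest to the line and JAZ7 farthest, at -2.32 in wild type and 1.36 in gp1-2.

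Across the 12 libraries, JAZ1, JAZ2, JAZ5, JAZ6, JAZ7, JAZ9 and JAZ10 followed the mean of the standardised log2 CPM of all 10 genes. Their Pearson r ran from 0.87 (JAZ10) to 0.931 (JAZ1), each gene being part of that mean. JAZ3 (r = 0.121) and JAZ4 (r = -0.135) did not follow it. For JAZ8 r was 0.763, a value that draws on the group fixed by the filter. JAZ8 is also part of the mean with which genes outside the family are compared here. The genes outside the family and its pathway lists with the most similar pattern (mean of at least 5 CPM, 12 libraries sharing 4 groups) were CYP79B3 (r = 0.988), AT5G01750 (0.979), BGLU46 (0.977), AT1G56540 (0.975), RGLG2 (0.975) and AT5G35735 (0.974). CYP79B3 makes indole-3-acetaldoxime, a precursor of indole glucosinolates. It measured 49.1 ± 5.63 CPM in untreated wild type and 37.4 ± 3.1 CPM with volatiles, then 63.9 ± 4.8 and 82.6 ± 7.55 CPM in gp1-2 (SD, n = 3). These correlations are descriptions.

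Counts called in this and the following lists are to be read beside the shares of all genes tested, given by direction above. In all, 30.1% were called for volatiles in wild type and 32.3% for volatiles in gp1-2. For genotype these shares were 37.2% without bacteria and 45.9% with volatiles, and for the interaction 2.8%. Of 6 further genes of the TIFY family, to which JAZ genes belong, 5 were tested (AT3G22275 was too low). Volatiles in wild type lowered 2 of them, JAZ11 (log2 fold change -0.36, edgeR adjusted p = 0.04) and TIFY8 (-0.54, edgeR adjusted p = 8.1e-05). The JAZ11 call was kept in 7 of 15 alternatives, and did not hold when replicate 1 or 2 of either wild-type group was left out (edgeR adjusted p from 0.079 to 0.16). TIFY8, which lacks the motif through which JAZ proteins are degraded, was also lower in untreated gp1-2 (log2 fold change -0.90, edgeR adjusted p = 1.5e-07), at 34.8, 36.0 and 33.5 CPM against 67.8, 62.6 and 63.9 CPM in wild type. With volatiles JAZ12 was higher in gp1-2 (0.44, edgeR adjusted p = 0.00095), TIFY8 was lower (-0.74, edgeR adjusted p = 9.5e-07), and PPD1 was lower (-0.40, edgeR adjusted p = 0.042). The PPD1 call was kept in 4 of 15 alternatives, and was lost without any one of the 6 libraries other than volatile-treated wild-type replicate 1 (edgeR adjusted p from 0.061 to 0.2). For the tested genes of this list the medians lay between -0.284 and 0.089 over all 5 contrasts.

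Of 7 receptor and corepressor genes (COI1, its partners ASK1, ASK2, CUL1 and RBX1, and NINJA and TPL), volatiles in wild type raised RBX1 (log2 fold change 0.34, edgeR adjusted p = 0.049) and lowered COI1 (-0.36, edgeR adjusted p = 0.0059). RBX1 was called neither by DESeq2 nor by limma-voom, and its call did not hold when replicate 1 or 2 of untreated wild type, or replicate 2 or 3 of wild type with volatiles, was left out (edgeR adjusted p from 0.054 to 0.2). In gp1-2, volatiles changed 0 of the 7 by edgeR, DESeq2 or limma-voom, and 1, COI1 (log2 fold change -0.22), had an unadjusted edgeR p under 0.05. Untreated gp1-2 was higher for CUL1 (0.25, edgeR adjusted p = 0.018), which did not hold when replicate 1 of untreated wild type, or replicate 1 or 2 of untreated gp1-2, was left out (edgeR adjusted p from 0.057 to 0.062), and with volatiles 3 were higher and 1 lower, from -0.291 (ASK2) to 0.39 (TPL). The TPL call was lost without volatile-treated wild-type replicate 3 or gp1-2 replicate 2 (edgeR adjusted p of 0.091 and 0.12), and that of COI1 without volatile-treated wild-type replicate 1 or gp1-2 replicate 3 (0.056 and 0.052). NINJA was called in none of these comparisons, with edgeR adjusted p from 0.3 to 1.

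Of the 7 bHLH genes, MYC2, the master activator, measured 92.5, 71.7 and 38.5 CPM in wild type without bacteria, 25.4, 24.3 and 16.7 CPM in wild type with volatiles, 118, 110 and 69.9 CPM in untreated gp1-2, and 58.9, 57.4 and 44.2 CPM in gp1-2 with volatiles. The third replicate was the lowest of each group. MYC2 fell with volatiles in wild type (log2 fold change -1.62, edgeR adjusted p = 4e-04) and in gp1-2 (-0.89, edgeR adjusted p = 0.014), and the interaction term of 0.72 did not pass (edgeR adjusted p = 0.38). The gp1-2 call was lost without untreated gp1-2 replicate 1 or 2 and without volatile-treated gp1-2 replicate 3 (edgeR adjusted p from 0.055 to 0.066). JAZ1, which fell in wild type as well, was not called in gp1-2; the difference between these genes was not tested. Between genotypes, 3 of the 7 were higher and 1 lower in untreated gp1-2, and 5 were higher and 1 lower with volatiles. MYC2 was higher in gp1-2 with volatiles (1.27, edgeR adjusted p = 0.0011) and was not called without bacteria (0.55, edgeR adjusted p = 0.11). MYC3 (0.59, edgeR adjusted p = 5.1e-05), the repressor JAM1 (0.79, edgeR adjusted p = 1.1e-05) and JAM3 (0.39, edgeR adjusted p = 0.0038) were higher in untreated gp1-2. The gene called lower in each condition was NIG1. NIG1 had 0 counts in all 3 untreated gp1-2 libraries and at most 0.478 CPM in untreated wild type.

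Genes of jasmonate synthesis were higher in untreated gp1-2 in 10 of 13 tested, lower in 0 by edgeR, DESeq2, limma-voom or an unadjusted edgeR p under 0.05, from AOC2 (log2 fold change 0.32, edgeR adjusted p = 0.04) to LOX2 (1.61, edgeR adjusted p = 9e-06). The AOC2 call was lost without any one of the 6 untreated libraries (edgeR adjusted p from 0.063 to 0.12). With volatiles 8 were higher in gp1-2 and AOS was lower (-0.57, edgeR adjusted p = 3.2e-05). In wild type, volatiles raised 3 (LOX2, LOX6 and AOS) and lowered 3 (LOX4, OPCL1 and JAR1). The OPCL1 call did not hold when replicate 3 of untreated wild type, or replicate 2 or 3 of wild type with volatiles, was left out (edgeR adjusted p from 0.09 to 0.12). LOX2, a plastid lipoxygenase of the first step, went from 125, 105 and 202 CPM to 732, 687 and 683 CPM in wild type, opposite to JAZ1 (log2 fold change 2.29, edgeR adjusted p = 1.1e-06). LOX4, another lipoxygenase, went from 46.4, 50.5 and 54.9 CPM to 23.8, 15.3 and 8.4 CPM in wild type and from 92.8, 169 and 143 CPM to 222, 252 and 175 CPM in gp1-2. Its interaction term of 2.36 passed (edgeR adjusted p = 0.0039). The interaction of LOX2 was negative (-1.07, edgeR adjusted p = 0.047), and that call was kept in 9 of 21 alternatives, being lost without any one library other than volatile-treated gp1-2 replicate 2 (edgeR adjusted p from 0.073 to 0.12). The medians of the list were 0.157, 0.162, 0.884 and 0.883 for volatiles in wild type, volatiles in gp1-2, genotype without bacteria and genotype with volatiles.

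Genes of jasmonate catabolism, which oxidise or cleave the hormone, were higher in gp1-2 for 6 of 8 tested in each condition and lower for 0. The interaction was called higher for 5 of the 8 and lower for 0, each of the 8 having a positive term. These counts of 0 lower held by edgeR, DESeq2, limma-voom and an unadjusted edgeR p under 0.05. The 5 were AT5G05600, an oxygenase (1.3, edgeR adjusted p = 0.00024), JRG21 (edgeR adjusted p = 0.011), CYP94C1 (1.47, edgeR adjusted p = 0.02), IAR3, an amidohydrolase (0.71, edgeR adjusted p = 0.01) and ILL6, an amidohydrolase (0.98, edgeR adjusted p = 0.029). Limma-voom called 4 of them, without CYP94C1. The CYP94C1 call was lost without untreated or volatile-treated wild-type replicate 2, the JRG21 call without untreated wild-type replicate 1 (edgeR adjusted p = 0.055). The ILL6 call was lost without volatile-treated wild-type replicate 1 or 2, untreated gp1-2 replicate 1 or 2, or any gp1-2 library with volatiles (edgeR adjusted p from 0.056 to 0.079). CYP94C1, which carboxylates jasmonoyl-isoleucine, measured 3.51, 5.50 and 4.97 CPM in untreated wild type and 2.14, 1.97 and 2.26 CPM with volatiles, then 17.5, 31.5 and 22.5 CPM and 32.2, 30.5 and 28.5 CPM in gp1-2. JRG21 had at most 0.608 CPM in wild type and 45.3, 31.3 and 27.8 CPM in gp1-2 with volatiles. With genes at 3 counts or fewer in a group set to their bound, the medians of the list were -0.591, 0.549, 1.594 and 2.49 in the same order.

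Among 9 output genes, volatiles in gp1-2 raised 6 and lowered 0 (also 0 by DESeq2, limma-voom and an unadjusted edgeR p under 0.05), and in wild type they raised 3 and lowered 2, VSP1 and PDF1.2a (0 by limma-voom). PDF1.2a had 24, 1 and 0 counts in untreated wild type and 0, 0 and 0 with volatiles, and its call was lost without untreated replicate 1 (edgeR adjusted p = 0.43) or any of the treated libraries. The wild-type call of VSP1 was lost without untreated replicate 1 or treated replicate 1 or 2 (edgeR adjusted p from 0.055 to 0.085). VSP1, a vegetative storage protein, measured 2.50, 2.08 and 2.29 CPM in untreated wild type, 1.2, 1.32 and 1.36 CPM with volatiles, 6.23, 7.79 and 10.2 CPM in untreated gp1-2 and 16.7, 17.3 and 19.8 CPM in gp1-2 with volatiles. Its groups stood in the same order as those of JAZ7, and it alone of the 9 passed the interaction test (1.97, edgeR adjusted p = 0.0023). TAT3, a tyrosine aminotransferase, was at most 0.263 CPM in wild type and at 76.8 to 469 CPM in gp1-2. CORI3 rose with volatiles in each genotype (2.13 in wild type, edgeR adjusted p = 4.9e-05; 2.36 in gp1-2, edgeR adjusted p = 2.2e-05, both log2) and was lower in untreated gp1-2 (-1.31, edgeR adjusted p = 0.0026). With genes at the floor set to their bound, the medians were 0.676, 1.149, 0.6 and 0.976.

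**Figure D4:**
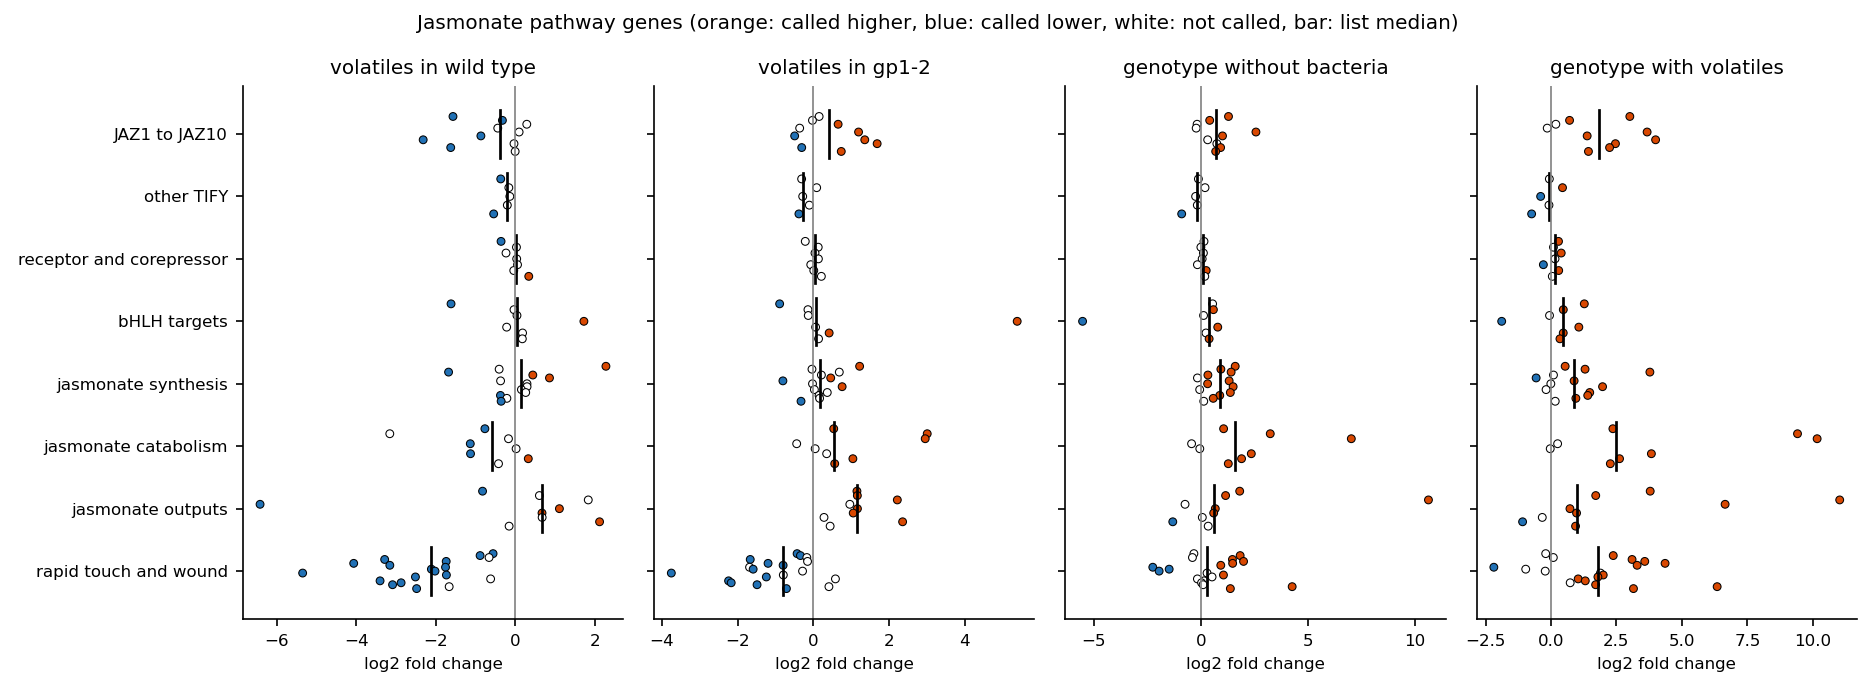
Log2 fold change (x axis, a different range in each panel) of each tested gene of the JAZ set and 7 further lists (y axis) in 4 comparisons; orange points were called higher, blue lower, white not called, and bars are list medians. Points of genes with 3 counts or fewer in a group are fitted values, not bounds. Of the 19 genes of rapid touch and wound response, 16 are blue in the first panel.

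Some JAZ genes are also known to be induced within minutes by touch and wounding, and the levels of genes of that kind are given here beside the JAZ differences. Of 19 rapid touch and wound genes, volatiles in wild type lowered 16 and raised 0 (median log2 fold change -2.111), and volatiles in gp1-2 lowered 12 and raised 0 (median -0.801), where 4 JAZ genes rose and 2 fell. DESeq2 and limma-voom also called 0 higher in both, and 1 gene, MYB44 in gp1-2, had a positive difference at an unadjusted edgeR p under 0.05. Between genotypes, 8 were higher and 3 lower in untreated gp1-2, and 12 were higher and 1 lower with volatiles. The summed level of the list was 1820 to 2790 CPM in untreated wild type, 755 to 1150 CPM in wild type with volatiles, 3500 to 4290 CPM in untreated gp1-2 and 2430 to 2890 CPM in gp1-2 with volatiles, with none at 0. WRKY40 measured 107, 59.1 and 25.8 CPM, then 4.41, 4.47 and 2.65 CPM in wild type, and 190, 205 and 148 CPM, then 103, 73.3 and 59.7 CPM in gp1-2. Its interaction term of 2.87 passed (edgeR adjusted p = 0.01), as did those of ZAT12, WRKY33, ERF6 and CML38 (limma-voom called 3 of the list, DESeq2 6). The ZAT12 call was lost without any volatile-treated wild-type library, untreated gp1-2 replicate 2 or volatile-treated gp1-2 replicate 1. The CML38 call was lost without untreated wild-type replicate 2, any volatile-treated wild-type library, or replicate 1 of either gp1-2 group. In untreated wild type JAZ1 and MYC2, like ZAT10 (102, 52.2 and 25.1 CPM) and ORA47 (22.3, 4.96 and 2.29 CPM), were highest in replicate 1 and lowest in replicate 3. JAZ6, JAZ7 and JAZ9 were not. Of the same touch and wound list, TCH2, TCH3, TCH4, CBF1, CBF2 and MYB44 were highest in replicate 2 instead. The part of this early response in the JAZ differences was not tested. Over 15 alternatives, which include leaving out replicate 1 or replicate 3 of every group, the log2 fold change of JAZ1 with volatiles in wild type ran from -1.765 to -1.377 and was called in each. These alternatives compare the same treated and untreated groups, so they do not test the part of the early response.

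**Figure D5:**
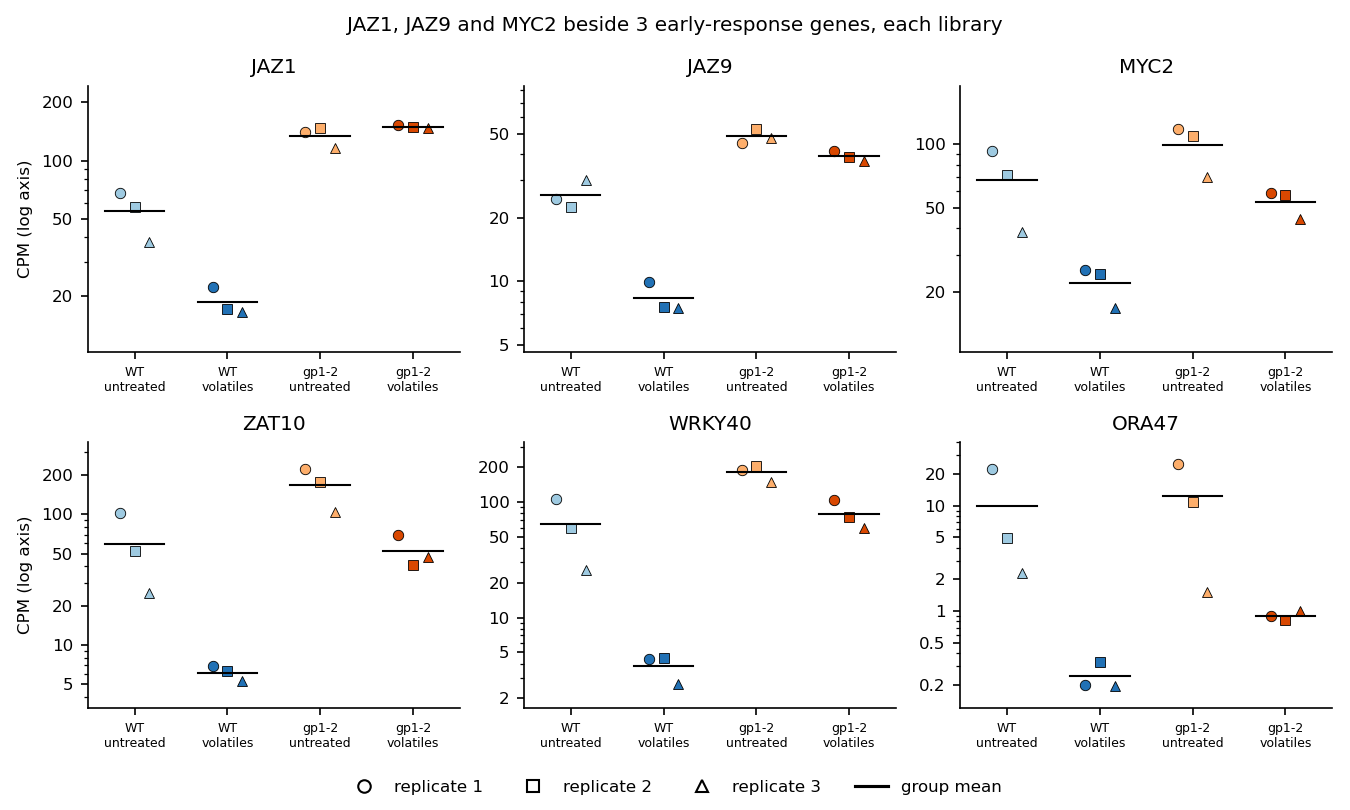
Normalised read count (CPM, log axes, a different range in each panel) of JAZ1, JAZ9, MYC2 and 3 early-response genes in each library; symbols mark the replicate number and lines the group mean. In gp1-2, ZAT10, WRKY40 and MYC2 are lower with volatiles. JAZ9 is also lower there, at 37.1 to 41.5 CPM against 45.2 to 52.5 CPM untreated. JAZ1 lies between 116 and 152 CPM in the gp1-2 libraries. Of the 19 touch and wound genes, 12 were called lower with volatiles in gp1-2 and 7 were not called. One of the 7, ZAT12 (not shown), had log2 fold changes of -1.738 in wild type and -0.156 in gp1-2.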

How the data were processed

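The deposited file holds integer counts of reads for 33602 genes in 12 libraries, as the authors made them, with no normalization. Per the submitters' processing notes, the tools were Trimmomatic 0.36, HISAT2 2.1.0 and HTSeq 0.9.1, and the build was TAIR10. The strand setting and the handling of shared reads are not given in the sources used here. Names, coordinates, exon lengths and sequences came from RefSeq's TAIR10.1, which names all members.

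Genes were kept by filterByExpr (minimum count 10), scaled by TMM and compared by the quasi-likelihood F test of edgeR (edgeR 4.0.16, limma 3.58.1, R 4.3.3), with 1 coefficient per group over all 12 libraries, Benjamini-Hochberg adjustment over 20736 genes and a threshold of 0.05. A standard error is the log2 fold change divided by the square root of F. CPM use TMM-scaled library sizes. The common biological coefficient of variation was 0.109, and no pair of replicates agreed within sampling noise. P-values set a difference against the estimated spread between libraries, and floors of 3 counts cover counting error only. The steps were tested on simulated counts.

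The members and lists were chosen with earlier results of these data known. Named genes are the members, list genes that were called at the extremes or whose role is described, and the 6 most correlated genes; desaturases and early-response genes shown by library were added after their values were seen. Deviations of same-numbered libraries had r = 0.22, 0.11 and 0.17 between the untreated groups. Between other groups r ran from -0.03 to 0.25. The numbers may pair samples, but libraries of different number were not compared, so pairing was not tested. The main tests used no pairing in any comparison, and a replicate block was fitted only as an alternative. Alternatives were RLE and upper-quartile scaling, no filter, DESeq2 1.42.0, limma-voom, a replicate block and leaving out each library. Leaving out replicate 1 or 3 of every group and thinning to the smallest total were chosen after seeing the data.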

Additional observations from a re-analysis of the deposited data

Results flagged for a closer look

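In 3 of the JAZ genes the response to volatiles differed between wild type and gp1-2 by the test of the difference itself (edgeR's quasi-likelihood test of the interaction, all 12 libraries). The interaction log2 fold change was 1.72 for JAZ1, 3.68 for JAZ7 and 1.31 for JAZ9. Each was called in all 21 alternatives, over which the values ran from 1.527 to 1.915 for JAZ1, from 3.016 to 4.181 for JAZ7 and from 1.144 to 1.458 for JAZ9. No outlying library was looked for, because groups of 3 are too small.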

How the results depend on the processing

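Of 729 comparisons of a JAZ gene other than JAZ8 with its value under an alternative, 699 kept direction and side of the threshold, 24 lost the call, 6 gained it and 0 called values reversed. The calls for JAZ1 and JAZ7 and the 7 genotype calls with volatiles were kept throughout. With JAZ8, whose difference the filter fixed, counted among them, the number of JAZ genes called was 8 in every leave-out for genotype with volatiles and 3 for the interaction, and ran from 5 to 6 for genotype without bacteria, 5 to 6 for volatiles in gp1-2 and 4 to 6 for volatiles in wild type. With upper-quartile scaling the median of all genes was -0.106 (genotype without bacteria) and -0.126 (genotype with volatiles). With TMM it was -0.016 and -0.045. Under upper-quartile scaling untreated gp1-2 had 3406 genes higher and 4769 lower, against 4156 and 3567 with TMM. The JAZ counts, JAZ8 included, stayed at 6 and 8 higher. Volatiles in wild type raised 1 JAZ gene (JAZ3) and lowered 4 with upper-quartile scaling. Thinned to the smallest total, volatiles in wild type changed 7, with JAZ3 (0.32) and JAZ4 (-0.59) added. JAZ10 lost its call for volatiles in gp1-2 without replicate 1 of every group (0.69, edgeR adjusted p = 0.054). PDF1.2a, a defensin near 0 counts, stood at -0.74 for genotype without bacteria, uncalled, and ran from -1.31 to 3.41 when replicates were left out, the positive value without replicate 1 of every group; the cause was not tested.

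Over all genes, 580 were called for the interaction, against 941 with DESeq2 and 1038 with the replicate block; the cause was not tested. Leaving out libraries gave 120 to 831 for the interaction, 3584 to 6514 for volatiles in wild type, 3764 to 7442 for volatiles in gp1-2, 5597 to 7458 for genotype without bacteria and 7281 to 9398 for genotype with volatiles, the lowest each without replicate 1 of every group and the highest without replicate 3 of every group; the cause was not tested. A single library moved the interaction count past 1.5 times for untreated wild-type replicate 2, untreated gp1-2 replicates 1 and 2 and volatile-treated gp1-2 replicates 1 and 2 (331 to 354 without each). JAZ8 had no adjusted p from DESeq2 for the interaction. Of 18 same-numbered pairs, 9 had a correlation of deviations of 0.1 or less, and the main tests used no pairing. The replicate block changed no call of a JAZ gene. Counts of JAZ8, JAZ7 in wild type with volatiles and several catabolism genes in wild type were too low to show moderate differences.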
